A study of Mus musculus with 6 samples.

Results

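The proliferin genes Prl2c2, Prl2c3, Prl2c4 and Prl2c5 and the prolactin receptor gene Prlr were followed in RNA-seq data of mouse skin fibroblasts (MSFs). They were chosen by symbol, as the mitogen-regulated proliferins and the receptor of their hormone family, because Prl2c3 was already known to be higher after tamoxifen (TAM) in these data. Of the 5 symbols, 4 have a row among the 22162 genes of the deposited table, and no row carries the name Prl2c4. RefSeq lists that symbol as a synonym of Prl2c3. The MSFs came from the dorsal skin of a female FASST mouse, bred to an FVB background, in which Cre-ERT2 is driven by the pro-alpha 2(I) collagen promoter and a lox-stop-lox p27Kip1 allele sits at the ROSA26 locus. All 6 samples carry both alleles and were cultured in 3% oxygen and 5% carbon dioxide. The 3 samples labelled senescent were treated with 10 µM TAM for 48 h, and the 3 labelled non-senescent received ethanol (EtOH), the vehicle. No group received TAM without the p27Kip1 allele, so TAM itself and the activated allele cannot be told apart. The age of the mouse is not given in the labels. Nothing states that replicates came from separate animals, so p-values measure only the spread between these samples.

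Proliferins are secreted glycoproteins of the prolactin and growth hormone family. Trophoblast giant cells of the placenta make them in quantity, they act on endothelial cells to drive vessel growth, and cultured mouse fibroblasts make them when serum or growth factors are added. They bind the mannose 6-phosphate receptor Igf2r, whereas prolactin binds Prlr, a cytokine receptor without a kinase of its own that works through JAK2 and STAT5.

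The normalized counts per library summed to between 14952367 and 17314953, and the smallest value above 0 in a library lay between 0.36 and 0.89. Low values differed among genes of a library, as with 0.64 for Prl3a1 and 0.79 for Prl7a2 in replicate 1 labelled TAM. The worth of 1 read is therefore known only roughly. Cdkn1b, the endogenous gene of p27Kip1, had 1427, 3074 and 1853 normalized counts in replicates 1, 2 and 3 labelled EtOH and 1699, 1520 and 1630 in those labelled TAM. The groups overlapped, and it is not stated if this row includes transgene reads, so the directions below hold for the libraries as labelled. All 9 fibroblast markers were tested. Their summed normalized counts were 1531130 to 1679930 in the libraries labelled EtOH and 684804 to 1127040 in those labelled TAM. Col1a1, Col1a2 and Col3a1 made up most of these sums. Thy1 and Pdgfrb had higher means labelled TAM (2911 and 6369) than labelled EtOH (1258 and 6049). The other markers had lower means labelled TAM, with Vim at 51587 labelled EtOH and 46639 labelled TAM. Summed over 7 keratinocyte markers the values were 66.8 to 83.4 labelled EtOH and 56.1 to 82.4 labelled TAM, mostly from Krt10. Krt5 and Krt14 were at or below 13.4 normalized counts. Trp63 had 25.12, 25.78 and 24.85 in replicates 1, 2 and 3 labelled EtOH and 7.15, 2.50 and 6.87 in those labelled TAM. Krt5 moved the other way, from 0.64, 0 and 0 labelled EtOH to 2.96, 7.53 and 13.4 labelled TAM. Over 7 macrophage markers the sums were 203 to 527 labelled EtOH and 366 to 548 labelled TAM. The largest sum labelled EtOH came mostly from Cd68 in replicate 2 (352), and the mean of Cd68 was lower labelled TAM (85.3 against 167). Lyz2, Csf1r and Itgam were higher in every library labelled TAM, as were 9.19% of all genes tested. Their means were 48.3, 74.5 and 0.24 labelled EtOH and 135, 143 and 2.09 labelled TAM. Cd14 had means of 40.7 labelled EtOH and 81.2 labelled TAM, with overlap. Over 6 endothelial markers they were 92.5 to 241 and 24.6 to 45.2. Cdh5 was at or below 4.80, and Kdr made up most of the endothelial sums labelled EtOH. Tek also had a lower mean labelled TAM (6.07) than labelled EtOH (17.1). Vwf moved the other way, from 0.55, 6.65 and 4.34 labelled EtOH to 8.9, 8.36 and 10.1 labelled TAM. The mean of Pecam1 was 4.3 labelled EtOH and 6.93 labelled TAM, and Emcn was at or below 0.79. The part of these levels in the results below was not tested. In bulk RNA, fewer cells of a type and less RNA per cell cannot be told apart.

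The 3 measured proliferin genes lie near each other on chromosome 13 of mm9, away from the cluster of the other prolactin family genes. Prl2c3 (ENSMUSG00000056457) spans 12883089 to 12892345 on the minus strand, Prl2c2 (ENSMUSG00000079092) spans 13088393 to 13097659 on the minus strand, and Prl2c5 (ENSMUSG00000055360) spans 13274982 to 13284190 on the plus strand. Each has 5 exons. The transcripts of Prl2c2 and Prl2c3, both 850 bases long, differed at 4 bases, which is 99.5% identity without a gap. Those of Prl2c5 were 96.7% and 96.4% identical to Prl2c2 and Prl2c3, with 28 and 30 mismatched bases. Among the 672 coding bases, Prl2c2 and Prl2c3 differed at 3 positions, counted from 1 at the first coding base and written from Prl2c2 to Prl2c3 as T14C, C200A and T319G. The other difference lay in the 5′ UTR.

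The coding stretches around the second and the third of these positions are shown because they hold bases that tell the 3 sequences apart. Capitals mark bases that differ among the 3 genes, in coding bases 180 to 220.
Prl2c3: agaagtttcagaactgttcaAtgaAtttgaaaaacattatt
Prl2c2: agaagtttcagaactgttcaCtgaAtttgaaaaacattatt
Prl2c5: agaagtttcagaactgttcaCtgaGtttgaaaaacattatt
The other stretch covers coding bases 299 to 339.
Prl2c3: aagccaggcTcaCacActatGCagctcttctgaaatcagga
Prl2c2: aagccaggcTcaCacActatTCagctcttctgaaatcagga
Prl2c5: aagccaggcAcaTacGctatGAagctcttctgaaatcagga
Prl2c5 carries several bases of its own in the latter stretch, whereas Prl2c2 and Prl2c3 differ there at 1 position.

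The consequence for read assignment was measured with words of 50 bases taken within exons. Of the 605 such words of the Prl2c3 transcript, 47 (7.77%) occurred at 1 place in the mm9 genome on either strand, and 92.2% were found in Prl2c2 as well. For Prl2c2 the number was 21 of 605 words (3.47%). These words of Prl2c2 covered the 5′ UTR difference or T319G, and none covered T14C or C200A. The words of Prl2c3 found once covered each of the differences from Prl2c2. Prl2c5 was easier to tell apart, with 338 of 599 words (56.4%) found once. Some words also matched Prl2c1 or an interval at chr13:13413097-13414411 with no annotated protein-coding gene. Prlr had no such close copy, and 98.4% of its 9410 words were found once. The read length, the treatment of reads with several matches and the strand setting of the counting are not given in the sources used here, and the reference is not of the FVB strain. The split of reads between Prl2c2 and Prl2c3 is therefore uncertain, and their sum is given below beside their own values.

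**Figure D1:**
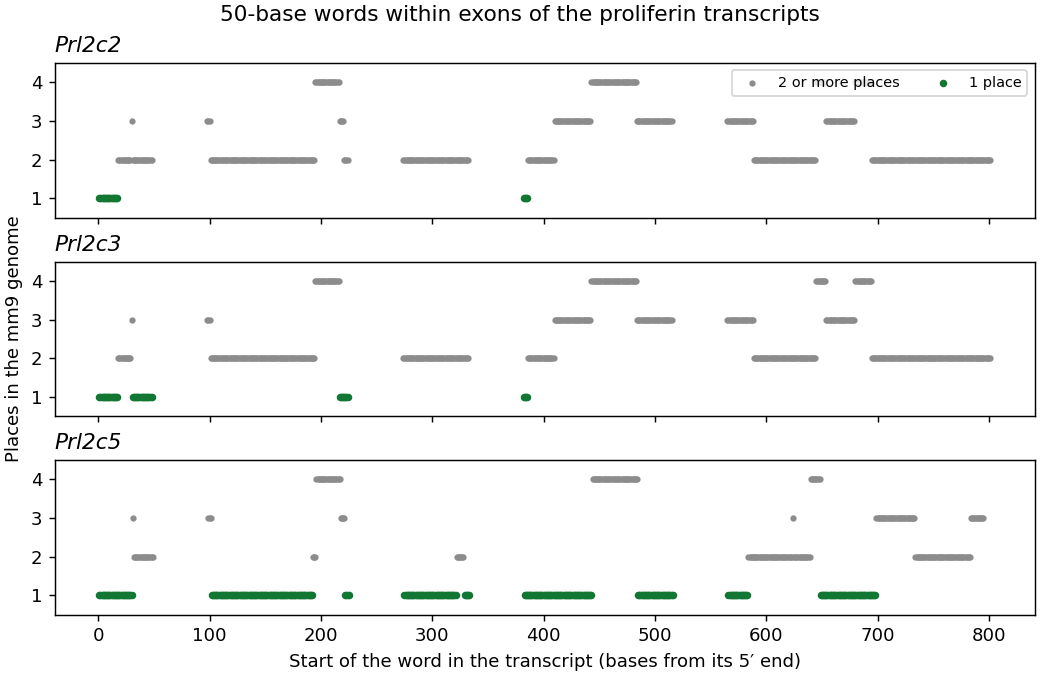
Number of places in the mm9 genome (vertical axis) of each 50-base word within an exon of the 3 proliferin transcripts, by the word's start in the transcript (horizontal axis, bases), with words found at 1 place in green and others in grey. Green words are confined to short stretches in Prl2c2 (21 words) and Prl2c3 (47 words) and cover much of Prl2c5 (338 words).

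The promoters are shown because the 3 genes had higher values in the same libraries and their upstream sequences are nearly the same. Each is the 250 bases before the annotated start, read from mm9 on the gene's strand, for Prl2c3 chr13:12892346-12892595 (minus), for Prl2c2 chr13:13097660-13097909 (minus) and for Prl2c5 chr13:13274732-13274981 (plus). Capitals mark TTAGTCA, a relative of the AP-1 site, and the TATA box, spelled TATATAA.
Prl2c3: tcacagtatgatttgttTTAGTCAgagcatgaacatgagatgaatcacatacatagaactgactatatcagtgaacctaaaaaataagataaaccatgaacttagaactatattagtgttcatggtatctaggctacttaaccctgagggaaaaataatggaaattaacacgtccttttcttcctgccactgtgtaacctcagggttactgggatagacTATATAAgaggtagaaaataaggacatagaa
Prl2c2: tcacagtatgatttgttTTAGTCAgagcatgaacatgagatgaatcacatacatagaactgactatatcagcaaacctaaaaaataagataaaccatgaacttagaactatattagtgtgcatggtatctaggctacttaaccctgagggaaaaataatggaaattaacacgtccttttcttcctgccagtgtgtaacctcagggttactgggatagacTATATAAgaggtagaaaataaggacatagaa
Prl2c5: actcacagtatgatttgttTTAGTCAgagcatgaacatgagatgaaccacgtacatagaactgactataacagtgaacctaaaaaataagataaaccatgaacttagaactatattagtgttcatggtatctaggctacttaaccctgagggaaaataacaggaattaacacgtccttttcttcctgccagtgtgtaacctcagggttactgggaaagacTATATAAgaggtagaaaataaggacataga
The promoters of Prl2c2 and Prl2c3 were 98.4% identical, and that of Prl2c5 was 96.0% and 96.8% identical to them. TTAGTCA began 233 bases before the start in Prl2c2 and Prl2c3 and 231 bases before it in Prl2c5. On either strand (TTAGTCA or TGACTAA) it occurred in 1.7% of the 22375 promoters of protein-coding genes. TATATAA began 31, 31 and 30 bases before the start, and it or TTATATA occurred in 3.18% of promoters. The canonical AP-1 letters TGAGTCA or TGACTCA, found in 3.85% of promoters, were in none of these 3 windows. The motif TTAGTCA was chosen after the promoters had been read, and a match of letters is not evidence of binding.

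Prl2c3 had the highest values of the family. Replicates 1, 2 and 3 labelled EtOH had 75.5, 135 and 7.82 normalized counts, against 1431, 2080 and 492 in those labelled TAM. Every library labelled TAM lay above every library labelled EtOH, and replicate 3 was the lowest in both groups. The means were 72.9 ± 63.8 (SD, n = 3) and 1334 ± 798 (SD, n = 3), a ratio of 18.3. On the scale of log2(normalized counts + 1), on which all log2 fold changes here are differences of group means, the difference was 4.65. Between same-numbered libraries it was 4.23, 3.93 and 5.80. This placed Prl2c3 at number 5 among the 11877 genes tested, ordered by log2 fold change. Ranked by normalized counts within a library, it stood at places 9112 to 12318 among all genes in the libraries labelled EtOH and at 1455 to 5483 in those labelled TAM. Since Prl2c3 was chosen for this difference, the values are a description and no test is given for them or for the other members in this contrast.

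Prl2c2, which encodes a proliferin nearly identical to that of Prl2c3, was also higher in every library labelled TAM. Replicates 1, 2 and 3 labelled EtOH had 23.9, 21.9 and 4.27 normalized counts, against 280, 287 and 87.6 in those labelled TAM. The groups did not overlap, and replicate 3 was again the lowest of each. The means were 16.7 ± 10.8 (SD, n = 3) and 218 ± 113 (SD, n = 3), a ratio of 13.1 and a log2 fold change of 3.74. The differences between same-numbered libraries were 3.50, 3.66 and 4.07 on the log2 scale, a narrower range than for Prl2c3. Prl2c2 was number 30 of the 11877 genes in the order of log2 fold changes.

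Prl2c5 was close to the limit of detection. Replicates 1, 2 and 3 labelled EtOH had 0.60, 4.77 and 0.80 normalized counts, against 10.9, 8.36 and 7.40 in those labelled TAM, so the EtOH values rest on 1 or a few reads. The groups did not overlap, but the gene did not reach the filter of 1 c.p.m. (16.2 normalized counts) in at least 3 libraries and was not in the fit. The means were 2.06 ± 2.35 (SD, n = 3) and 8.88 ± 1.80 (SD, n = 3), a ratio of 4.32. Its log2 fold change of 1.94 is held down by the added 1, and with 0.1 added in its place the value was 2.61.

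Of the 3 members that passed the filter, 2 had groups without overlap and the higher values labelled TAM, against 9.19% of the 11877 genes tested, and since the members were picked on this contrast nothing is read from that count. The summed proliferin rows gave 100, 162 and 12.9 normalized counts in replicates 1, 2 and 3 labelled EtOH and 1721, 2375 and 587 in those labelled TAM. The sum does not depend on how reads were split among the 3 genes, although reads dropped for matching several places are missing from it. Prl2c3 made up 75.5%, 83.6% and 60.7% of the sum in the libraries labelled EtOH and 83.1%, 87.5% and 83.8% in those labelled TAM. The ratio of Prl2c3 to Prl2c2, whose transcripts have the same length, was 3.16, 6.19 and 1.83 labelled EtOH and 5.11, 7.24 and 5.61 labelled TAM. The ratios of the groups overlapped, and the count of Prl2c3 was above that of Prl2c2 in all 6 libraries. Equal length does not make these counts comparable, since 47 words of Prl2c3 and 21 of Prl2c2 were found once in the genome. If reads with several matches were dropped, this could itself raise the ratio. The shares and ratios are therefore those of counts and need not be those of expression, which was not tested.

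**Figure D2:**
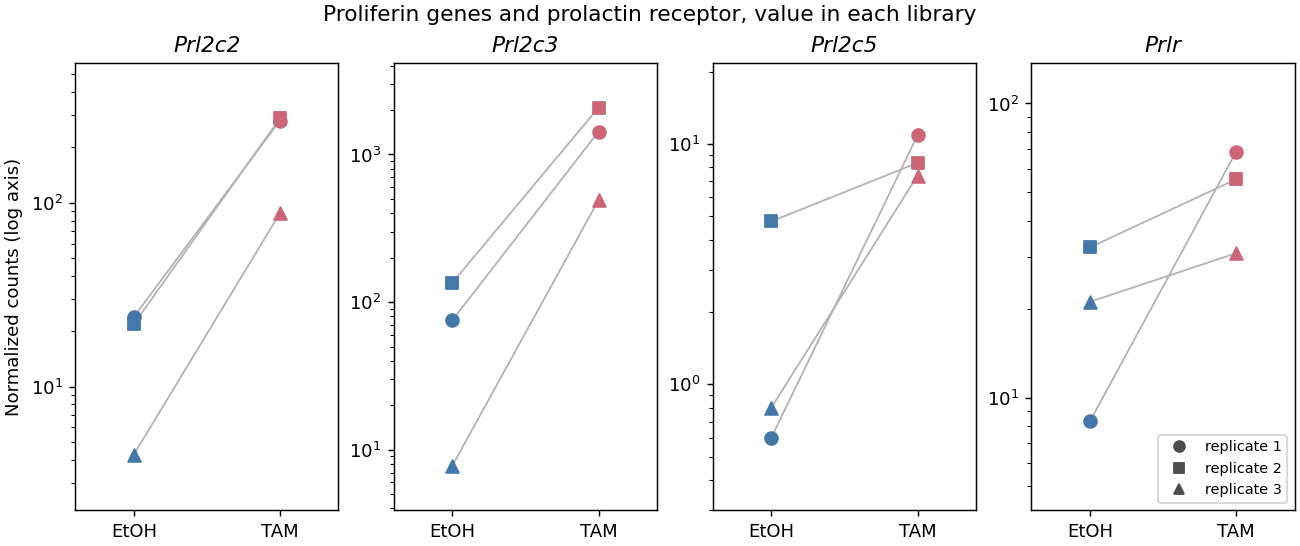
Normalized counts (vertical log axes, each with its own range) of the 4 measured members in each library, EtOH in blue and TAM in red, with grey lines joining libraries of the same replicate number. The TAM points lie above all EtOH points for Prl2c2, Prl2c3 and Prl2c5, and for Prlr the TAM point of replicate 3 (31.0) lies below the EtOH point of replicate 2 (32.4).

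Prlr (ENSMUSG00000005268) encodes the prolactin receptor. Its row spans 10106993 to 10259143 on chromosome 15, which takes in all 1824 coding bases of its longest transcript with a consensus coding sequence, while the annotated gene runs on to 10303504. GENCODE vM1 gives the gene 14 transcripts, and a retained-intron transcript among them has exactly the span of the row. The authors assigned reads to RefSeq genes, and which exons of Prlr entered the count is not stated. An annotated exon of Agxt2, a neighbour on the same strand, shares 89 exon bases with Prlr. Prlr had 8.32, 32.4 and 21.2 normalized counts in replicates 1, 2 and 3 labelled EtOH and 68.6, 55.3 and 31.0 in those labelled TAM. The groups overlapped by 1 library on each side. The means were 20.7 ± 12.1 (SD, n = 3) and 51.6 ± 19.1 (SD, n = 3), a ratio of 2.50 and a log2 fold change of 1.39. The differences of same-numbered libraries, all positive, were 2.90, 0.75 and 0.53, so replicate 1 carried most of the mean. Without replicate 1 labelled EtOH the log2 fold change was 0.88. Unlike Prl2c2 and Prl2c3, Prlr was not lowest in replicate 3 labelled EtOH, and it held place 372 in the order of log2 fold changes.

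Per kilobase of annotated exon, the levels labelled TAM were 1569 ± 939 (SD, n = 3) normalized counts for Prl2c3, 257 ± 133 (SD, n = 3) for Prl2c2, 7.54 ± 1.53 (SD, n = 3) for Prl2c5 and 3.33 ± 1.23 (SD, n = 3) for Prlr. Labelled EtOH they were 85.8 ± 75.1 (SD, n = 3), 19.6 ± 12.7 (SD, n = 3), 1.75 ± 2.00 (SD, n = 3) and 1.33 ± 0.78 (SD, n = 3). The values of Prl2c3 and Prl2c2 did not overlap labelled TAM and did overlap labelled EtOH. These lengths are those of GENCODE vM1 exons, whereas the authors counted reads over RefSeq genes. They also take no account of the sequence that the proliferin genes share. The order of Prl2c5 and Prlr depends on the length used, since with only the 4571 exon bases inside its row Prlr came to 11.3 ± 4.17 (SD, n = 3) normalized counts per kilobase labelled TAM.

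The other ligands of the family were at or near 0. Of 24 further genes, among them prolactin (Prl), growth hormone (Gh) and the placental lactogens, 13 were listed at 0 in every library, Prl and Prl2c1 included, and 0 passed the filter. The 11 others were Gh, Prl2b1, Prl3a1, Prl3d1, Prl6a1, Prl7a1, Prl7a2, Prl7b1, Prl7c1, Prl7d1 and Prl8a9. Their highest value was 5.01 normalized counts, for Prl7d1 in replicate 2 labelled TAM. Summed over the 24 genes, the values were 0.89 to 2.88 labelled EtOH and 4.22 to 10.8 labelled TAM. Of 13 trophoblast markers, 8 were listed at 0 throughout, and the sums of the 13 were 3.40 to 8.65 labelled EtOH and 4.98 to 7.48 labelled TAM. In the libraries labelled TAM, the prolactin family signal was therefore almost wholly that of Prl2c3 and Prl2c2.

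The genes beside the proliferins are described next. Since Prl2c3 was chosen for its difference, smaller log2 fold changes of neighbours say nothing about them. Neighbours below the filter, such as Actn2, were not tested. Beside the log2 fold changes from here on, ± gives the standard error from limma. Within 500 kb, 6 other genes were tested, and 0 of them had an adjusted p under 0.05 in limma, with or without the replicate number as a block, nor an unadjusted p under 0.05. With 0.244% and 1.62% of all genes called, and 13.4% and 17% by the unadjusted p, a count of 0 among 6 genes does not set them apart. The largest differences were those of Gpr137b (log2 fold change 0.73 ± 0.53, limma adjusted p = 0.606) and Nid1, which encodes the basement membrane protein nidogen (log2 fold change 0.55 ± 0.26, limma adjusted p = 0.412). Nid1 and Gpr137b lie beyond Prl2c5, and the log2 fold changes of the 6 genes ran from −0.33 (Lgals8) to the 0.73 of Gpr137b. This window was chosen after the data had been examined.

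In the receptor pathway, 24 of 25 genes besides Prlr were tested, and 0 had an adjusted p under 0.05 in limma, with or without the block, where 0.244% and 1.62% of all genes tested were called. By the unadjusted p, 1 gene was higher and 3 were lower in either fit, where 13.4% and 17% of all genes passed. The median log2 fold change of the 24 genes was 0.05, beside −0.03 over all genes tested. Jak2, the kinase bound to the receptor, had a log2 fold change of 0.08 ± 0.19 (limma, adjusted p = 0.887). Its targets Stat5a and Stat5b, the transcription factors of the pathway, stood at −0.14 ± 0.21 and −0.20 ± 0.17 (limma, adjusted p = 0.815 and 0.654).

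The feedback inhibitors Socs2 and Cish had log2 fold changes of opposite sign, and neither passed the test. Socs2, which limits growth hormone signalling, had 626, 605 and 2108 normalized counts in replicates 1, 2 and 3 labelled EtOH and 37.6, 440 and 226 in those labelled TAM, a log2 fold change of −2.57 ± 0.91 (limma, adjusted p = 0.295). Its groups did not overlap. Cish, another STAT5-induced inhibitor, had 7.54, 26.7 and 3.39 normalized counts labelled EtOH and 26.8, 26.0 and 22.9 labelled TAM, a log2 fold change of 1.37 ± 0.71 (limma, adjusted p = 0.464). The groups of Cish overlapped at replicate 2 labelled EtOH. The growth hormone receptor Ghr, the closest relative of Prlr in the list, had 13360, 11834 and 17933 normalized counts labelled EtOH and 5962, 4914 and 12956 labelled TAM. Its log2 fold change was −0.97 ± 0.39 (limma, adjusted p = 0.344), opposite in sign to that of Prlr, and its groups overlapped. The remaining genes with an unadjusted p under 0.05 were Ptpn1, a phosphatase (log2 fold change 0.67, limma adjusted p = 0.183), and Mapk3, a kinase (log2 fold change −0.86, limma adjusted p = 0.268).

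**Figure D3:**
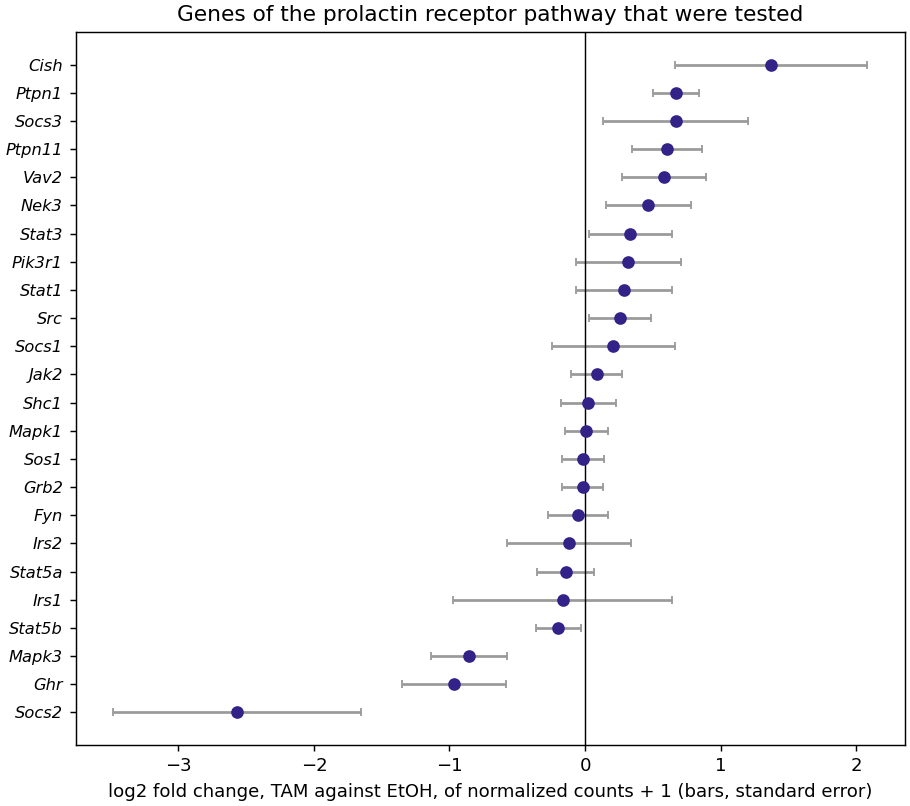
log2 fold change of normalized counts + 1, TAM against EtOH (horizontal axis; points, estimates; bars, standard errors), of the 24 tested pathway genes other than Prlr, ordered by value. Cish lies highest (1.37) and Socs2 lowest (−2.57), and 0 of the 24 genes had a limma adjusted p under 0.05.

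Among 14 genes known to answer to prolactin or STAT5, 9 were tested, and 0 had an adjusted p under 0.05 in limma, beside 0.244% of all genes tested. By the unadjusted p, 2 were higher and 2 lower, and 3 higher and 1 lower with the block, where 13.4% and 17% of all genes passed. The block brought in 1 gene, Wnt4, a secreted signal by which the mammary gland branches, where 1.62% of all genes tested were called. Nothing about the list is read from this 1 call. Wnt4 had 5.94, 20.9 and 6.04 normalized counts labelled EtOH and 114, 452 and 117 labelled TAM. Its groups did not overlap, and 9.19% of all genes tested were likewise higher without overlap. The log2 fold change of 4.16 had a standard error of 0.70 and an adjusted p of 0.0900 in limma, which the block brought to 0.28 and 0.0147. The milk protein gene Csn2 was listed at 0 in every library. The median log2 fold change of the 9 genes was 0.52, beside −0.03 over all genes tested. Cish and Socs2 are counted in this list and in the receptor pathway, so the counts of the lists are not separate.

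For the proliferin receptor Igf2r the normalized counts were 5857, 6564 and 7167 labelled EtOH and 8360, 4072 and 5028 labelled TAM, and the groups overlapped. The log2 fold change was −0.23 ± 0.29 (limma, adjusted p = 0.775). M6pr, the other mannose 6-phosphate receptor, had a log2 fold change of 0.01 ± 0.29 (limma, adjusted p = 0.995). Of the 7 AP-1 subunit genes tested, 0 had an adjusted p under 0.05 in limma with or without the block, with 0 at an unadjusted p under 0.05 without it and 1, Fosl1, with it. Among all genes tested, 0.244% and 1.62% were called by the adjusted p and 13.4% and 17% passed by the unadjusted p, so counts of 0 or 1 among 7 genes do not set this list apart. Fosl1 had 79.4, 912 and 29.1 normalized counts labelled EtOH and 153, 1132 and 104 labelled TAM. Within each group it was highest in replicate 2 and lowest in replicate 3. Jun, Fos and Prl2c3 also had this order, whereas Junb, Fosb, Fosl2, Jund and Prl2c2 did not. A link between this order and the proliferin values was not tested. The difference of Fosl1 was 1.02 on the log2 scale (adjusted p = 0.794 in limma, or 0.220 using the block).

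The genes whose profile over the 6 libraries was most like that of Prl2c3 were Hp, Il6 and Mmp13. Likeness was the root mean square difference of log2(normalized counts + 1) after each gene was centred on its own mean, and these genes differed from Prl2c3 by 0.36, 0.40 and 0.61. Hp, which encodes haptoglobin, had 10.6, 20.9 and 1.62 normalized counts labelled EtOH and 324, 554 and 124 labelled TAM. Il6 had 5.16, 7.56 and 0 labelled EtOH and 66.7, 138 and 26.2 labelled TAM. Mmp13 had 0.74 in replicate 3 labelled EtOH. The likeness among libraries labelled EtOH thus rests partly on values near 0, where the added 1 weighs. The nearest genes to Prl2c2 were Vnn1, Kif26b and Il13ra2, at 0.30, 0.31 and 0.33. Those nearest to Prlr were Nt5e, Lhx9 and Flrt3, at 0.23, 0.26 and 0.30. Nt5e, the ecto-5′-nucleotidase, had 23.9, 88.7 and 43.2 normalized counts labelled EtOH and 155, 182 and 69.5 labelled TAM, with replicate 1 lowest labelled EtOH as for Prlr. These genes were picked for their likeness, which is a description over 6 libraries with no test.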

How the data were processed

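The 6 libraries were made from poly(A) RNA. The authors aligned reads to mm9 (TopHat), assigned them to RefSeq genes (htseq-count) and tested them in edgeR after TMM normalization. Versions are not given in the sources used here. They deposited 1 table of normalized counts, a signal per gene and library that is not in whole numbers and whose scaling the header does not state. The planned test on read counts was therefore replaced by limma 3.58.1 in R 4.3.3, with its variance trend, on log2(value + 1) of the 11877 genes that reached 1 c.p.m. (16.2 normalized counts) in 3 or more libraries, with Benjamini-Hochberg adjustment over all of them and a threshold of 0.05. The fit was tested on simulated data. Across genes, libraries sharing a replicate number deviated from their groups together (r = 0.241, 0.287 and 0.422), so the replicate number was also fitted as a block; the pairing rests on these values and on no stated protocol. Read totals are unknown, and no counting intervals were computed. Transcripts, promoters and 50-base words were read from the mm9 genome with GENCODE vM1. Python 3.11.15 was used with pandas 2.3.3, and plots were drawn in matplotlib 3.10.9.

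Genes named by rule are the members, the family genes above 0, listed genes that were called or fixed by name, and the 3 genes most like each tested member. Neighbours, Cdkn1b and cell type markers are named as well. The AP-1 genes, M6pr, Csn2 and the pathway genes with an unadjusted p under 0.05 were added outside that rule. The members and lists were chosen with earlier results of these data known. Alternatives were 2 scalings, 2 filters, 2 pseudocounts, the block and leaving out each library.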

Additional observations from a re-analysis of the deposited data

How the results depend on the processing

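The log2 fold changes of Prl2c2, Prl2c3, Prl2c5 and Prlr kept their sign under every alternative run. Only that of Prl2c5 moved by more than the spread within groups, to 0.66 with 10 added before the log. Leaving out each library in turn gave 3.01 to 4.30 for Prl2c2, 3.48 to 5.45 for Prl2c3, 1.60 to 2.53 for Prl2c5 and 0.88 to 1.80 for Prlr. The lowest values of Prl2c2 and Prl2c3 came without replicate 3 labelled EtOH. With at least 10 normalized counts required in every library, none of the members could be kept. The pathway genes called numbered 0 under every alternative, which says nothing where leaving out a library left 0 calls among all genes. Over all genes, 20 were called higher and 9 lower labelled TAM. Without a filter these counts were 45 and 3, with at least 10 in every library 9 became 4, and with the replicate block they were 119 and 73. Leaving out a library gave 0 to 6 higher and 0 to 9 lower, with 0 in both directions without replicate 1 or 3 labelled EtOH or replicate 1 labelled TAM. The block changed the call of no listed gene but Wnt4 and the endothelial gene Kdr, and the causes were not tested. Values of a few normalized counts, as for Prl2c5, rest on a few reads.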
